A study of Mus musculus with 24 samples.

Results

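The transcriptional response to traumatic brain injury (TBI) was followed in mice that received Anakinra, by comparing 5 injured Anakinra mice with 4 sham mice, 9 of the 24 libraries in the series. TBI was a controlled cortical impact, in which a piston strikes the right parietal cortex through a craniotomy. The 5 TBI mice received 100 mg/kg Anakinra subcutaneously at 5 min and at 24, 48 and 72 h after the impact. The 4 sham mice had anesthesia and a sutured skin incision, without craniotomy or impact, and received vehicle. Craniotomy, impact and drug therefore separate the groups together and cannot be told apart within this comparison. A further group of 5 TBI mice that received vehicle carries the same operation without the drug and is set beside the Anakinra mice below. The replicate labels of these vehicle mice, and of no other mice, end in B. The labels do not say what the letter means, so whatever it marks cannot be told apart from the drug in that comparison. The labels give all mice as males of strain C57BL6N aged 12 to 16 weeks, whereas the methods name the substrain C57BL/6JRj. The whole study used both sexes, and the paper states that its RNA sequencing was limited to males. Tissue was taken 5 days post injury (dpi), with 1 poly-A mRNA library per mouse. The labels call the tissue cortex, but according to the methods it was an upper quadrant of the right brain with cortex, striatum, dorsal hippocampus and thalamus. Markers of all of these regions were detected in every mouse, and the summed level of 10 striatal genes was between 1527 and 1984 TPM in Anakinra mice and between 1703 and 1979 TPM in sham mice.

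Interleukin-1 alpha and beta bind the receptor IL1R1, which recruits the accessory protein IL1RAP and signals through MYD88 and IRAK kinases to NF-kappaB. The antagonist encoded by Il1rn occupies the same receptor without signalling, and Anakinra is a recombinant form of the human antagonist. After a contusion, microglia and infiltrating myeloid cells take up debris, astrocytes become hypertrophic, fibroblasts of vessels and meninges lay down a scar, and neurons at the lesion are lost.

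Expression is given as TPM, a transcript level normalized to gene length and scaled so that each library sums to 1000000. Between 22160 and 23249 of 36333 listed genes were above 0 in the sham, vehicle and Anakinra libraries, and 17267 genes that averaged 0.5 TPM or more across the 24 libraries were tested. Most of these libraries are from injured mice, so a gene near 0 in sham mice could pass this filter through injured mice alone. For lists with such genes, the share of tested members that rose is partly set by the filter. Neither counts nor sequencing depth accompany the TPM, so precision rests on the spread between mice. Differences are means of log2(TPM + 1) in Anakinra mice minus sham mice, which understate the change of low genes, with the standard error (SE) and the Benjamini-Hochberg adjusted p of a limma model. A gene rose or fell where the adjusted p was below 0.05. Values per mouse are given in the order J05, J06, J14, J21 and J22 for Anakinra and J07, J08, J15 and J16 for sham. Mice of these groups resembled each other, with a root mean square difference between mice of 0.21 to 0.27 on the log2 scale among Anakinra mice and of 0.22 to 0.24 among sham mice. The vehicle mice spread more widely, at 0.22 to 0.34.

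The injury response under Anakinra was broad, and its large changes were almost all increases. Of the 17267 genes, 4342 rose (25.1%) and 5050 fell (29.2%). The groups did not overlap, with every Anakinra mouse above or below every sham mouse, in 3677 higher genes (21.3%) and 4071 lower genes (23.6%). Genes that rose had a median difference of 0.54, and 1126 of them rose by more than 1 on the log2 scale. Genes that fell had a median difference of -0.31, and only 5 fell by more than 1. Differentially expressed genes (DEGs) were required to have an unadjusted p below 0.05, a ratio of mean TPM above 2 and a difference above 4 TPM. By this rule 905 genes were higher (5.24%) and 9 were lower (0.0521%), the latter rising to 14 without Anakinra mouse J06 and to 15 without J14. The 905 higher DEGs took between 6.80% and 8.13% of all TPM in Anakinra mice and between 1.66% and 1.75% in sham mice. TPM share a fixed sum, and the 5050 genes that fell went from between 51.5% and 51.9% of all TPM in sham mice to between 39.1% and 41.7% in Anakinra mice. In bulk tissue a smaller number of cells of a type and less RNA per cell cannot be told apart, which holds for every cell marker below.

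**Figure D1:**
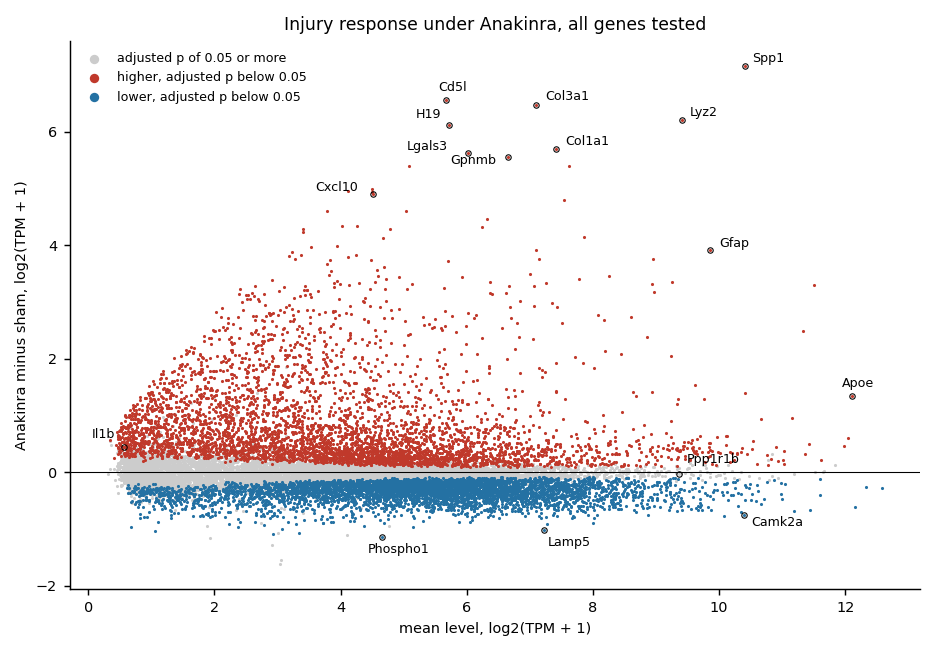
Each point is 1 of the 17267 genes tested, with the mean of both groups on the x axis (log2 of TPM + 1) and the Anakinra minus sham difference on the y axis (log2 scale). Red and blue points passed an adjusted p of 0.05. Increases reach 7.16 for Spp1, whereas only 5 called decreases go below -1.

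The increases were led by genes of lipid-laden phagocytes and of scar matrix. Spp1 (chromosome 5, 104435111 to 104441053 of GRCm38), which encodes the secreted phosphoprotein osteopontin, was 3398, 2276, 2234, 2504 and 3059.6 TPM in the Anakinra mice and 15.9, 16.8, 19.5 and 18.3 TPM in the sham mice. Every injured mouse was more than 100-fold above the sham mean, with a difference of 7.16 ± 0.22 (SE, adjusted p = 5.02e-18). Lyz2, the lysozyme of myeloid cells (chromosome 10, 117277541 to 117282272), was 1707, 1109, 959.7, 1391 and 1561 TPM in the Anakinra mice and 16.8, 13.1, 16.6 and 21.8 TPM in the sham mice, a difference of 6.21 ± 0.20 (SE, adjusted p = 1.24e-17). Cd5l, a secreted survival factor of macrophages, was 107, 66.1, 121, 94.5 and 109 TPM in the Anakinra mice and 0, 0.0666, 0 and 0.108 TPM in the sham mice, and 2 of the 4 sham mice were listed at 0. Its difference was 6.56 ± 0.24 (SE, adjusted p = 8.86e-17). Lgals3 and Gpnmb, a galectin and a glycoprotein of phagocytes that digest lipid, differed by 5.62 ± 0.18 and 5.56 ± 0.20 (SE). Col3a1 and Col1a1, chains of the fibrillar collagens III and I, differed by 6.47 ± 0.59 and 5.69 ± 0.55 (SE). H19, an imprinted noncoding RNA of fetal tissues, was 114, 97.4, 58.8, 123 and 119 TPM in the Anakinra mice and 0.373, 0.237, 0.602 and 0.625 TPM in the sham mice, a difference of 6.11 ± 0.53 (SE, adjusted p = 5.92e-10). These 8 genes had the largest increases among those called by every criterion, 1 of which was that the groups did not overlap.

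**Figure D2:**
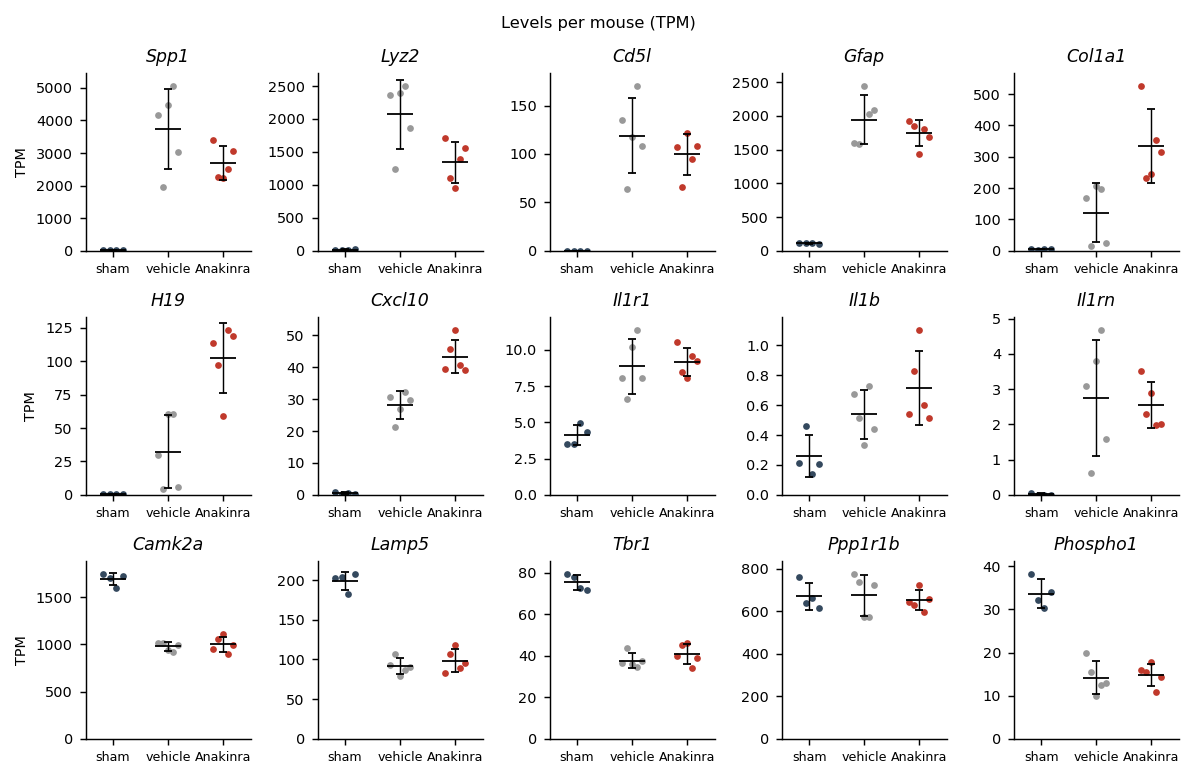
TPM of 15 genes in each sham, vehicle and Anakinra mouse (points), with the group mean and SD (bars), on linear axes that start at 0. Phagocyte, astrocyte and collagen genes separate both injured groups from sham, the neuronal genes Camk2a, Lamp5 and Tbr1 are lower after injury, and the striatal gene Ppp1r1b overlaps in all groups.

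The interleukin-1 axis itself was raised in tissue under Anakinra. Of 22 tested genes for its ligands, receptors and signalling, 18 rose and 1 fell, with a median difference of 0.85 against -0.04 over all genes tested. Il1r1, the receptor that Anakinra occupies (chromosome 1, 40222480 to 40316201), was 10.5, 8.48, 8.08, 9.58 and 9.23 TPM in the Anakinra mice and 3.53, 3.54, 4.95 and 4.37 TPM in the sham mice, a difference of 1.00 ± 0.14 (SE, adjusted p = 9.44e-07). The ranges did not overlap, and the mean rose 2.24-fold. Its partner Il1rap was 16.1, 16.7, 15.7, 18.1 and 17.8 TPM in the Anakinra mice and 15.2, 17.4, 17.5 and 18.9 TPM in the sham mice, with overlapping groups and a difference of -0.03 ± 0.07 (SE, adjusted p = 0.748). The decoy receptor Il1r2 was below 1 TPM in every mouse and differed by 0.26 ± 0.12 (SE, adjusted p = 0.0642), a call that was gained without Anakinra mouse J05 (adjusted p = 0.0242) or J22 (adjusted p = 0.0451).

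Among the ligands, Il1b was low, at 0.541, 0.829, 1.10, 0.599 and 0.511 TPM in the Anakinra mice and 0.215, 0.461, 0.142 and 0.208 TPM in the sham mice. All Anakinra mice were above all sham mice, with a difference of 0.44 ± 0.14 (SE, adjusted p = 0.00822). Il1a was 1.47, 1.69, 1.81, 1.55 and 1.504 TPM in the Anakinra mice and 0.401, 0.447, 0.295 and 0.388 TPM in the sham mice, a difference of 0.91 ± 0.11 (SE, adjusted p = 8.31e-08). The alarmin Il33 and the inflammasome product Il18 rose by 0.78 ± 0.08 and 0.35 ± 0.07 (SE). Il1rn, which encodes the mouse's own antagonist, was 3.51, 2.29, 2.88, 1.99 and 2.01 TPM in the Anakinra mice and 0.0504, 0, 0 and 0 TPM in the sham mice. Of the sham mice 3 were listed at 0, and the difference was 1.79 ± 0.25 (SE, adjusted p = 1.62e-06). The drug is a protein, so none of these transcripts reports its presence.

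The inflammasome and pyroptosis genes Pycard, Casp4, Gsdmd and Casp1 rose by 2.60 ± 0.13, 1.84 ± 0.16, 1.63 ± 0.16 and 1.49 ± 0.14 (SE). Pycard encodes the adaptor that links sensors to caspase-1, and it was 27.0, 22.2, 22.3, 25.2 and 24.0 TPM in the Anakinra mice and 3.06, 2.54, 2.93 and 4.12 TPM in the sham mice. The adaptor Myd88 rose from 8.09 ± 0.690 TPM (SD, n = 4) to 21.4 ± 2.66 TPM (SD, n = 5). Tollip, an inhibitor of the IRAK kinases, fell, at 112, 115, 113, 111 and 113 TPM in the Anakinra mice and 146, 142, 139.5 and 145 TPM in the sham mice and a difference of -0.34 ± 0.04 (SE, adjusted p = 1.51e-08). Vehicle mice, which share the 4 sham mice as their control, had a median of 0.86 over the same 22 genes. No gene of this list passed an adjusted p in the direct comparison of Anakinra with vehicle. An unadjusted p below 0.05 was reached by 2 of the 22, against 12.4% of all genes tested.

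Genes that interleukin-1 and NF-kappaB are known to induce were also higher in injured Anakinra mice than in sham mice. Of 22 tested, 21 rose and 1 fell (median 1.16), and Il6, Sele, Csf2, Csf3 and Cxcl2 were below the filter. Ccl2, the chemokine that draws CCR2-bearing monocytes, was 18.9, 14.7, 23.1, 15.1 and 13.9 TPM in the Anakinra mice and 0, 0.505, 0.311 and 0.546 TPM in the sham mice, a difference of 3.75 ± 0.18 (SE, adjusted p = 1.71e-14). Lcn2, a siderophore-binding protein of reactive astrocytes and neutrophils, was 15.3, 23.7, 52.9, 17.9 and 16.6 TPM in the Anakinra mice and 0.167, 0, 4.55 and 0.516 TPM in the sham mice. Mouse J14 held more than any other Anakinra mouse, the groups did not overlap, and the difference was 3.73 ± 0.43 (SE, adjusted p = 7.92e-08). Saa3, an acute-phase protein, was 4.42, 3.67, 11.2, 6.66 and 3.24 TPM in the Anakinra mice and 0.268, 0.256, 0 and 0 TPM in the sham mice, and J14 was again highest. Ptgs2, the inducible cyclooxygenase that neurons also express, was the gene that fell (-0.49 ± 0.12, SE). Vehicle mice, compared with the same sham mice, had a median of 1.07, and 21 of the 22 genes rose. The median direct difference between Anakinra and vehicle was -0.01. At an unadjusted p below 0.05, 1 gene was higher and 4 were lower, against 5.5% and 6.94% of all genes tested. This comparison gave differences of -1.35 ± 0.41 for Lcn2 and -0.91 ± 0.35 for Saa3 (SE, adjusted p = 0.149 and 0.274), neither past the threshold.

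Of 23 tested chemokines, which are of the CC and CXC families apart from the CX3C chemokine Cx3cl1, 15 rose and 2 fell (median 2.37). Ccl12, a monocyte chemoattractant of mice, was 37.9, 41.8, 36.1, 31.6 and 29.4 TPM in the Anakinra mice and 1.59, 0, 0.934 and 1.03 TPM in the sham mice, a difference of 4.34 ± 0.20 (SE, adjusted p = 6.97e-15). The largest rise was that of Cxcl10, which attracts CXCR3-bearing cells and is described with the interferon genes below. The neuronal chemokine Cx3cl1, a ligand of the microglial receptor CX3CR1, fell and was 463, 488, 549, 424 and 502 TPM in the Anakinra mice and 703, 692, 714 and 750.1 TPM in the sham mice, a difference of -0.56 ± 0.08 (SE, adjusted p = 2.67e-06). Cxcl14, the most abundant of the 6 that did not pass, was 118, 117, 114, 106 and 102 TPM in the Anakinra mice and 121, 112, 104 and 108 TPM in the sham mice, with overlapping groups (adjusted p = 0.992).

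Microglial and phagocyte genes rose as whole lists. All 15 markers of homeostatic microglia rose (median 1.22), and their mean level was 5.88 ± 0.04 (SD, n = 5) in Anakinra mice and 4.45 ± 0.05 (SD, n = 4) in sham mice on the log2 scale. Fcrls, an Fc receptor-like protein of microglia, was 259, 234, 235, 246 and 238 TPM in the Anakinra mice and 20.4, 23.6, 25.2 and 27.6 TPM in the sham mice, a difference of 3.28 ± 0.13 (SE, adjusted p = 1.81e-16). Csf1r, the receptor that microglia need to survive, was 234, 215, 219, 213 and 224 TPM in the Anakinra mice and 62.5, 60.8, 60.5 and 61.2 TPM in the sham mice, a difference of 1.83 ± 0.10 (SE, adjusted p = 5.27e-14). P2ry12, a purinergic receptor of resting microglia, rose less, from 28.5 ± 1.69 TPM (SD, n = 4) to 55.0 ± 2.20 TPM (SD, n = 5). The groups did not overlap for 14 of the 15 genes.

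All 25 genes of damage-associated microglia and phagocytes rose, none overlapped between the groups and all 25 were DEGs (median 3.02). Cst7, a cystatin that is nearly absent from resting microglia, was 44.5, 45.6, 37.2, 45.6 and 40.5 TPM in the Anakinra mice and 0.144, 0.550, 0.381 and 0.446 TPM in the sham mice, a difference of 4.99 ± 0.17 (SE, adjusted p = 1.88e-17). Trem2, a lipid-sensing receptor, rose from 30.1 ± 4.16 to 236 ± 16.8 TPM (SD, n = 4 and n = 5). The lysosomal protease Ctsd reached 5688, 4929, 4695, 5395 and 5734 TPM in the Anakinra mice against 504, 527, 551 and 551 TPM in the sham mice. Cd68, a lysosomal glycoprotein used to stain activated microglia, was 289, 235, 220, 268 and 269 TPM in the Anakinra mice and 15.5, 17.8, 15.3 and 15.1 TPM in the sham mice, and Ptprc, the leukocyte antigen CD45, was 14.1, 12.7, 12.3, 14.3 and 14.8 TPM in the Anakinra mice and 1.72, 1.11, 1.81 and 1.52 TPM in the sham mice. Their differences were 3.92 ± 0.13 and 2.53 ± 0.13 (SE). Apoe, which carries lipid, was already abundant in sham mice and rose 2.53-fold, at 6971, 6171, 5958, 6715 and 5901 TPM in the Anakinra mice and 2609, 2445, 2447 and 2526 TPM in the sham mice.

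Markers of other leukocytes differed in how far they were measurable. Of 11 tested genes of border-associated macrophages 9 rose, with Pf4 and Stab1 at 3.41 ± 0.24 and 3.24 ± 0.16 (SE). Lyve1 and Cd163, which mark resident macrophages of vessels and meninges, did not pass, with differences of -0.08 ± 0.14 and 0.19 ± 0.11 (SE, adjusted p = 0.631 and 0.151). All 9 tested genes of monocytes and neutrophils rose, but 9 further genes of that list, among them Ly6g, Mpo and Elane, were below the filter. Members near 0 in sham mice, such as Ly6c2, passed the filter only through injured mice, so the count that rose is partly set by the filter. S100a8, an alarmin of neutrophils, was 8.64, 11.5, 25.2, 13.7 and 8.15 TPM in the Anakinra mice and 0.362, 2.08, 0.319 and 1.12 TPM in the sham mice, a difference of 2.85 ± 0.42 (SE, adjusted p = 3.35e-06). S100a9, its partner, was 1.49, 5.58, 18.3, 5.35 and 3.05 TPM in the Anakinra mice and 0, 1.29, 0.956 and 1.47 TPM in the sham mice, so that J14 was highest and J05 only just above the sham mice. Ly6c2, which marks inflammatory monocytes, was 1.53, 1.31, 8.02, 1.83 and 2.24 TPM in the Anakinra mice and 0, 0.145, 0.402 and 0 TPM in the sham mice, again highest in J14. Of 18 lymphocyte genes only Cd79b, Cd4 and Lck passed the filter, and of these Cd79b rose (1.10 ± 0.14, SE) while Cd4 and Lck did not pass (0.09 ± 0.10 and -0.12 ± 0.11, SE).

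**Figure D3:**
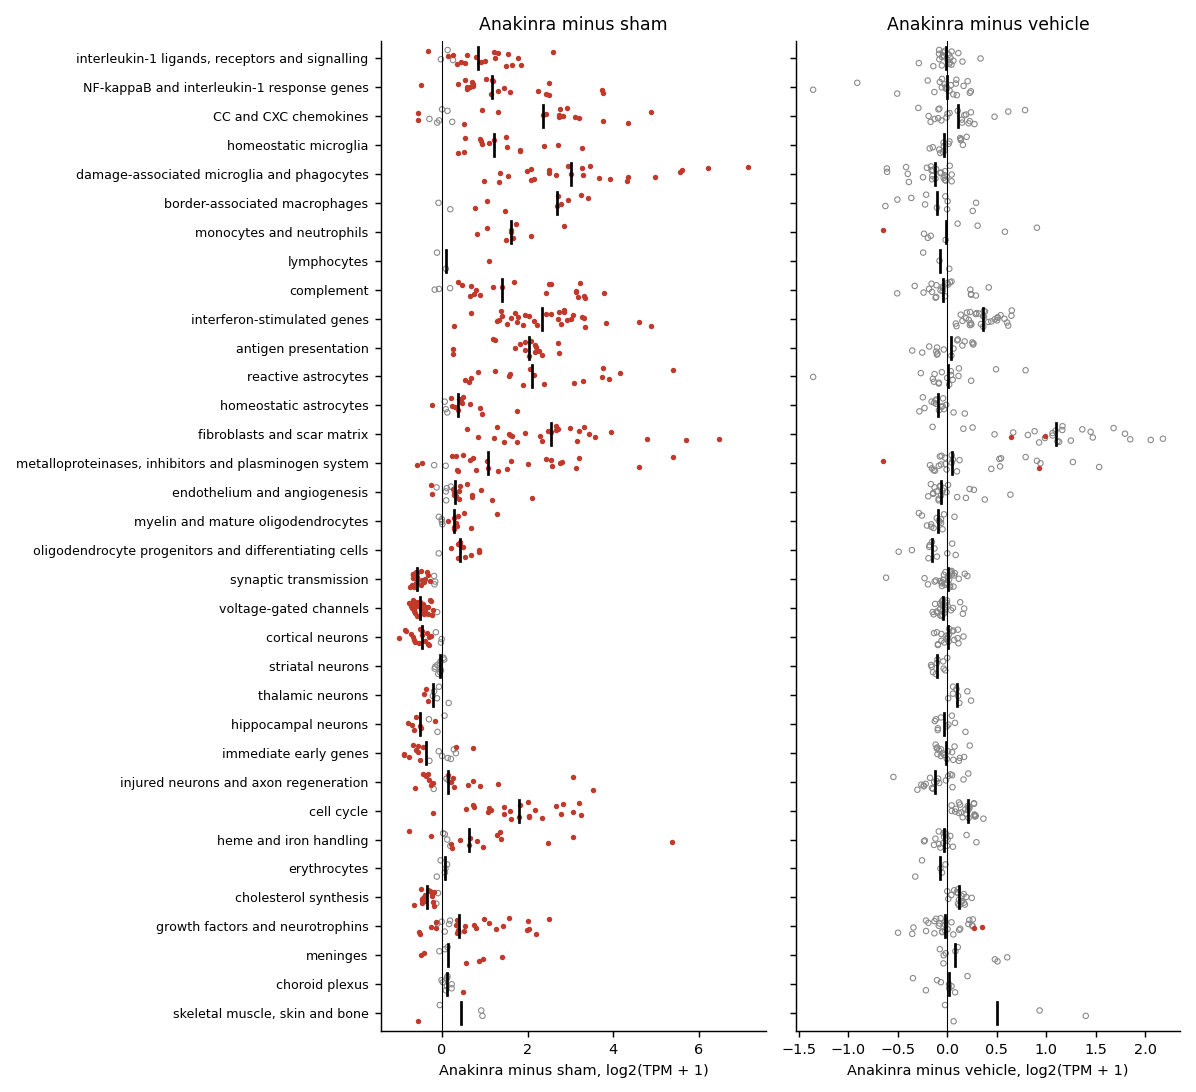
Differences of all tested members of the 34 gene lists, Anakinra minus sham at left and Anakinra minus vehicle at right (log2 scale, on different ranges). Filled red points passed an adjusted p of 0.05, open points did not, and the black bar is the list's median. Immune, astrocyte, matrix and cell cycle lists lie right of 0 at left, and neuronal and cholesterol lists lie left of it. At right most lists sit near 0, with scar matrix, interferon-stimulated genes and the 4 muscle, skin and bone genes above it. The lowest median at right is that of oligodendrocyte progenitors and differentiating cells (-0.16).

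Complement genes rose in 20 of 23 cases (median 1.41). C1qa, a chain of the recognition molecule that microglia make, was 1186, 1058, 1074, 1159 and 1064 TPM in the Anakinra mice and 109, 100.4, 106 and 118 TPM in the sham mice, a difference of 3.34 ± 0.11 (SE, adjusted p = 1.24e-17). C3ar1, the receptor for the C3a fragment, rose by 3.79 ± 0.13 and C4b, made largely by astrocytes, by 3.14 ± 0.09 (SE). The 3 genes that did not pass were Cd59a, Cd55 and C7, the first and second of which protect host cells from complement. All 17 genes of antigen presentation rose (median 2.04). Cd74, the chaperone of MHC class II, was 51.2, 35.4, 46.2, 36.2 and 31.5 TPM in the Anakinra mice and 9.04, 7.38, 6.46 and 5.68 TPM in the sham mice. H2-Ab1, a class II chain, differed by 2.26 ± 0.22 (SE), and the groups did not overlap for either gene. B2m, the light chain of MHC class I, rose 4.12-fold, and the immunoproteasome subunit Psmb8 rose 7.39-fold.

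All 32 measured interferon-stimulated genes rose (median 2.32), and 28 of them were DEGs. Cxcl10 (chromosome 5, 92346638 to 92348889) was 39.5, 45.6, 51.6, 40.9 and 39.2 TPM in the Anakinra mice and 1.03, 0.370, 0.455 and 0.200 TPM in the sham mice, a difference of 4.89 ± 0.17 (SE, adjusted p = 5.42e-17). Ifi27l2a, a small interferon-induced protein, was 67.3, 58.8, 71.5, 51.0 and 63.1 TPM in the Anakinra mice and 1.45, 3.07, 0.992 and 1.25 TPM in the sham mice, a difference of 4.61 ± 0.22 (SE, adjusted p = 1.30e-14). Isg15, a ubiquitin-like modifier, was 56.9, 57.7, 85.2, 49.4 and 65.2 TPM in the Anakinra mice and 4.32, 8.79, 3.97 and 5.09 TPM in the sham mice, and the highest value was again that of J14. Irf7, a transcription factor of the pathway, rose by 3.02 ± 0.16 (SE), and Ifit1, which binds viral RNA, by 2.93 ± 0.16 (SE). The mean level of the list was 4.41 ± 0.17 (SD, n = 5) in Anakinra mice and 2.04 ± 0.03 (SD, n = 4) in sham mice on the log2 scale, with 4.68 in J14 and 4.20 in J21 as the extremes of the Anakinra mice.

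Interferon signalling acts through a short promoter element, and the promoters of the listed members were therefore examined for it, whatever the size of their rise. The search used the letters GAAANNGAA on both strands in RefSeq promoter windows of GRCm38.p6, from 250 bases before to 50 bases after each gene start. Of the 34 listed interferon-stimulated genes 24 had a window, and 16 of these held the element. By windows the share was 60.7% (17 of 28), against 8.56% of all 32851 windows. In other lists the element was in 5 of 24 windows of NF-kappaB response genes, 2 of 16 of scar matrix genes and 3 of 30 of synaptic genes. The 4 members with the largest differences that held it are shown 5′ to 3′ on the strand of the gene, with matches in capitals (adjoining matches merge).
Cxcl10: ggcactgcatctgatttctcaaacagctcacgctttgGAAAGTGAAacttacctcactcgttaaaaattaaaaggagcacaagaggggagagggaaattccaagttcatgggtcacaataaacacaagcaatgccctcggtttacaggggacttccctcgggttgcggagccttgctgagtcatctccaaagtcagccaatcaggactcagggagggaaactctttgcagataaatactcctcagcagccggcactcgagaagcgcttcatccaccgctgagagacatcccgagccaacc
Bst2: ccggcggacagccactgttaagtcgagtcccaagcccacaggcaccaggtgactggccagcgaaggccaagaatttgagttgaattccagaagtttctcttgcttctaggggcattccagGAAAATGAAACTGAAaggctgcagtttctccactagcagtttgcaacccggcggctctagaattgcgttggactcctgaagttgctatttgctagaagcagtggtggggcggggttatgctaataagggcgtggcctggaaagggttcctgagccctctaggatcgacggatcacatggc
Isg15: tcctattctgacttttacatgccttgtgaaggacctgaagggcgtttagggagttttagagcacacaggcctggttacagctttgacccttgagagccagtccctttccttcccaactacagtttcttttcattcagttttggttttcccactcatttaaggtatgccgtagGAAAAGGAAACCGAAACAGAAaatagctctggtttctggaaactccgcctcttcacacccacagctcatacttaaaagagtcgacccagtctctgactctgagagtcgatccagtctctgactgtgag
Oas1a: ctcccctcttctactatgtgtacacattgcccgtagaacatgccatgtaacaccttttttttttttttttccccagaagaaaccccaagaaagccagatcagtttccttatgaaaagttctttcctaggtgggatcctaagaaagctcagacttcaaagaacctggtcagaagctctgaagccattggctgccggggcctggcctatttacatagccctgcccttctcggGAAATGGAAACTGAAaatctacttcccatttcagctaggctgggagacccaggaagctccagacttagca

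These windows lie at chr5:92348840-92349139 (Cxcl10), chr8:71537423-71537722 (Bst2), chr4:156200769-156201068 (Isg15) and chr5:120907476-120907775 (Oas1a), all on the minus strand. Cxcl10 has 1 match and Isg15 has 3 overlapping matches. The 4 genes rose by 4.89, 3.35, 3.32 and 3.27 on the log2 scale. Bst2 encodes tetherin, which holds budding virus at the cell surface, and Oas1a is a synthase of the RNA-degrading antiviral pathway. A kappaB element, searched as GGGANTTTC on both strands, was in 29.2% of 24 windows of the NF-kappaB response genes, against 1.11% of all windows, and in 0 of 28 windows of the interferon-stimulated genes. An AP-1 element, searched as TGANTCA, which reads alike on both strands, was in 28.6% of interferon-stimulated windows and 6 of 24 NF-kappaB windows, against 7.81% of all. A match describes letters in these windows and not binding.

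Astrocyte genes rose, in every tested member of the reactive list and in most of the homeostatic list. All 18 reactive genes rose without overlap (median 2.10), and 12 of 16 homeostatic genes rose (median 0.38). Gfap, the intermediate filament of astrocytes, was 1925, 1857, 1437, 1812 and 1684 TPM in the Anakinra mice and 122, 112, 119 and 106 TPM in the sham mice, a difference of 3.91 ± 0.10 (SE, adjusted p = 7.47e-19). Timp1, an inhibitor of metalloproteinases, was 61.9, 54.2, 78.2, 77.4 and 56.4 TPM in the Anakinra mice and 0.479, 0.457, 0.703 and 0.618 TPM in the sham mice, a difference of 5.40 ± 0.28 (SE, adjusted p = 3.46e-14). Vim and Serpina3n, a second filament and a secreted serpin, rose 13.7-fold and 18.5-fold. The water channel Aqp4 rose by 1.75 ± 0.11 (SE). The glutamate transporter Slc1a2 was 626, 636, 669, 627 and 715 TPM in the Anakinra mice and 611, 628, 613 and 654 TPM in the sham mice and did not pass (0.06 ± 0.05, SE, adjusted p = 0.294), and Gpc5 was the homeostatic gene that fell (-0.24 ± 0.07, SE).

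All 27 genes of fibroblasts and scar matrix rose without overlap (median 2.55). Col1a1 (chromosome 11, 94936224 to 94953042) was 525, 232, 246, 352 and 314 TPM in the Anakinra mice and 6.11, 4.05, 5.66 and 5.14 TPM in the sham mice, a difference of 5.69 ± 0.55 (SE, adjusted p = 3.65e-09). Col3a1 was 351, 204, 214, 284 and 303 TPM in the Anakinra mice and 2.68, 1.32, 2.00 and 2.20 TPM in the sham mice. Mouse J05 was highest for both collagens and J06 lowest, a spread of about the same size in Col1a2 (549, 257, 264, 377 and 358 TPM). Lox, Loxl1 and Loxl2, which crosslink collagen, rose by 3.96 ± 0.45, 2.47 ± 0.23 and 3.19 ± 0.30 (SE). Of 27 metalloproteinases, inhibitors and plasminogen genes, 23 rose and 2 fell (Mmp17 and Mmp24). The collagenase Mmp13 was 40.7, 13.03, 23.6, 22.4 and 27.3 TPM in the Anakinra mice and 0, 0, 0 and 0.0823 TPM in the sham mice, with 3 sham mice listed at 0, and Mmp3 was 5.57, 4.94, 5.26, 7.58 and 7.17 TPM in Anakinra mice and listed at 0 in all sham mice. Of 9 markers of meninges 4 rose and 2 fell, against 25.1% and 29.2% of all genes tested. Foxd1 rose by 1.41 ± 0.20 and the arachnoid gene Ptgds differed by -0.50 ± 0.09 (SE).

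Most genes of endothelium, myelin and oligodendrocyte progenitors rose, by list medians between 0.27 and 0.43, against -0.04 over all genes tested. Of 21 endothelial and angiogenic genes 14 rose and 2 fell, against 25.1% and 29.2% of all genes tested, and the median was 0.31. Aplnr, the apelin receptor, rose most (2.10 ± 0.24, SE), and Vegfa, the main angiogenic factor, fell and was 40.8, 43.3, 48.0, 42.4 and 43.1 TPM in the Anakinra mice and 52.9, 52.5, 53.5 and 51.6 TPM in the sham mice, a difference of -0.27 ± 0.07 (SE, adjusted p = 0.00254). The second gene that fell, Flt1, was close to the threshold (adjusted p = 0.0468) and the count of 2 dropped to 1 without any 1 of the mice J06, J14, J21, J07, J15 and J16, and after rescaling. Of 14 myelin genes 10 rose, all 10 without overlap, with the iron carrier Trf at 1.29 ± 0.08 and the tight junction protein Cldn11 at 0.67 ± 0.05 (SE). Of 11 genes of oligodendrocyte progenitors and differentiating cells 10 rose, all 10 without overlap (median 0.43), led by the receptor Gpr17, at 73.5, 58.7, 61.1, 53.9 and 64.0 TPM in the Anakinra mice and 32.8, 33.3, 35.4 and 32.1 TPM in the sham mice.

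Genes of neurons fell, by modest amounts and not in every region. Of 30 genes of synaptic transmission 27 fell and none rose (median -0.59), and of 29 voltage-gated channels 28 fell and none rose (median -0.52). Camk2a, the kinase of excitatory postsynapses, was 947, 1053, 1105, 896 and 994 TPM in the Anakinra mice and 1741, 1699, 1596 and 1718 TPM in the sham mice, a difference of -0.76 ± 0.07 (SE, adjusted p = 8.99e-10). The sodium channel Scn1a was 56.9, 60.6, 63.7, 60.4 and 68.6 TPM in the Anakinra mice and 102, 107, 108 and 108 TPM in the sham mice, a difference of -0.77 ± 0.07 (SE, adjusted p = 3.59e-09). Snap25, a protein of the vesicle fusion complex, fell from 2868 ± 107 to 1790.1 ± 85.2 TPM (SD, n = 4 and n = 5). Gad2, an enzyme of GABA synthesis, Slc17a6, the vesicular glutamate transporter of thalamus, and Gabra2 did not pass, with overlapping groups and differences of -0.16 ± 0.11, -0.19 ± 0.09 and -0.18 ± 0.10 (SE).

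Markers of cortical neurons fell, whereas no striatal marker passed the test. Of 20 markers of cortical neurons 17 fell (median -0.46). Lamp5, of superficial-layer neurons and interneurons (chromosome 2, 136052025 to 136069917), was 83.3, 106, 119, 89.5 and 95.1 TPM in the Anakinra mice and 203, 204, 182 and 207 TPM in the sham mice, a difference of -1.01 ± 0.09 (SE, adjusted p = 5.62e-10). Tbr1, a factor of deep-layer neurons, was 39.6, 45.0, 46.3, 33.9 and 39.1 TPM in the Anakinra mice and 79.2, 77.9, 72.7 and 71.6 TPM in the sham mice, a difference of -0.88 ± 0.09 (SE, adjusted p = 5.56e-09). Cux1, Rorb and Foxp2 did not pass (-0.03 ± 0.06, -0.15 ± 0.08 and -0.01 ± 0.08, SE). None of 10 striatal markers passed (median -0.05), as in Ppp1r1b, the dopamine-regulated phosphatase inhibitor, at 645, 631, 725, 596 and 659 TPM in the Anakinra mice and 761, 640.2, 664 and 613 TPM in the sham mice. Penk and Drd1 likewise overlapped, with differences of -0.05 ± 0.13 and -0.05 ± 0.12 (SE). Of 10 hippocampal markers 7 fell, against 29.2% of all genes tested. Neurod6, a factor of pyramidal neurons, was 54.2, 59.0, 57.6, 65.0 and 55.1 TPM in the Anakinra mice and 92.8, 110.4, 105 and 96.5 TPM in the sham mice. Wfs1 of CA1 did not pass (0.06 ± 0.12, SE). Of 8 thalamic markers 3 fell, against 29.2% of all genes tested, and none of the 8 separated the groups. Their count was 5 without Anakinra mouse J22 and 2 without J06, J21 or sham mouse J16, where Ntng1 did not pass (adjusted p = 0.0663, 0.0506 and 0.0667). Rora, the most changed, differed by -0.41 ± 0.09 (SE). The mean striatal level ran from 6.49 to 6.88 on the log2 scale over the Anakinra mice and from 6.65 to 6.86 over the sham mice.

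Immediate early genes, which report recent neuronal activity, fell in 9 of 18 cases and rose in 2, against 29.2% and 25.1% of all genes tested. Egr4, Egr3 and Egr1, transcription factors of this class, had the largest decreases, at -0.89 ± 0.16, -0.88 ± 0.09 and -0.78 ± 0.14 (SE), and Egr1 was 112, 136, 145, 105 and 132 TPM in the Anakinra mice and 218, 224, 213 and 206 TPM in the sham mice. Jun and Junb rose (0.72 ± 0.08 and 0.32 ± 0.10, SE), a count of 2 that became 4 without Anakinra mouse J21, 6 without sham mouse J15 and 5 after rescaling by the median ratio. Fos and Arc did not pass (0.32 ± 0.14 and -0.30 ± 0.22, SE). Of 20 genes of injured and regrowing neurons 10 rose and 7 fell, against 25.1% and 29.2% of all genes tested, so that the share that fell was near that of all genes. Atf3, a stress-induced factor of axotomized neurons, was 30.9, 23.1, 18.5, 25.2 and 29.4 TPM in the Anakinra mice and 1.65, 0.755, 0.760 and 2.06 TPM in the sham mice, a difference of 3.54 ± 0.18 (SE, adjusted p = 2.38e-14). Sprr1a, linked with axon regrowth, was 7.91, 6.17, 5.14, 16.2 and 12.9 TPM in the Anakinra mice and 0, 0.344, 0.158 and 0.279 TPM in the sham mice, a difference of 3.06 ± 0.27 (SE, adjusted p = 1.06e-09). The growth cone genes Gap43 and Stmn2 fell (-0.21 ± 0.07 and -0.39 ± 0.06, SE).

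Proliferation, iron and sterol genes completed the response. Of 24 cell cycle genes 23 rose (median 1.81) and Ccne1 fell. Top2a, a topoisomerase of dividing cells, was 23.2, 18.8, 20.02, 22.2 and 23.6 TPM in the Anakinra mice and 1.49, 1.63, 1.27 and 1.43 TPM in the sham mice. Mki67, the antigen Ki-67, differed by 2.67 ± 0.13 (SE). Of 19 genes of heme and iron handling 13 rose and 2 fell, against 25.1% and 29.2% of all genes tested. Hmox1, which opens the heme ring, was 391, 284, 403, 385 and 446 TPM in the Anakinra mice and 8.56, 7.92, 8.82 and 7.05 TPM in the sham mice, a difference of 5.39 ± 0.26 (SE, adjusted p = 1.73e-14), and the ferritin chain Ftl1 rose 5.63-fold. Tfrc, the transferrin receptor, fell and was 44.1, 52.5, 54.9, 52.8 and 49.8 TPM in the Anakinra mice and 79.4, 91.5, 88.9 and 90.1 TPM in the sham mice. Hemoglobin transcripts of red cells did not differ detectably, and none of 5 tested erythrocyte genes passed. Hbb-bs was 1052, 1246, 1014, 939 and 934 TPM in the Anakinra mice and 775, 756, 1198 and 1164 TPM in the sham mice, so that the groups overlapped. Of 18 genes of cholesterol synthesis 16 fell and none rose (median -0.36). Srebf2, the transcription factor that induces the pathway, was 103, 103, 109, 94.4 and 108 TPM in the Anakinra mice and 160, 144, 143 and 139 TPM in the sham mice, a difference of -0.50 ± 0.07 (SE, adjusted p = 1.49e-06).

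Growth factor genes were mixed, with 18 of 29 higher and 5 lower (3 after rescaling), against 25.1% and 29.2% of all genes tested. Tgfbi, Cntf and Igfbp2 rose most (2.5 ± 0.19, 2.19 ± 0.13 and 2.03 ± 0.14, SE). The TGF-beta target Tgfbi was 44.3, 33.3, 41.7, 34.1 and 39.3 TPM in the Anakinra mice and 5.78, 5.98, 5.80 and 6.25 TPM in the sham mice. The neurotrophin Bdnf and the neuronal factor Fgf9 fell (-0.52 ± 0.10 and -0.53 ± 0.08, SE). Of 9 choroid plexus genes only the water channel Aqp1 rose, against 25.1% of all genes tested. Ttr, the most abundant, overlapped between groups (between 3121 and 5031 TPM in Anakinra mice and between 2876 and 4114 TPM in sham mice for the sum of the list).

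**Figure D4:**
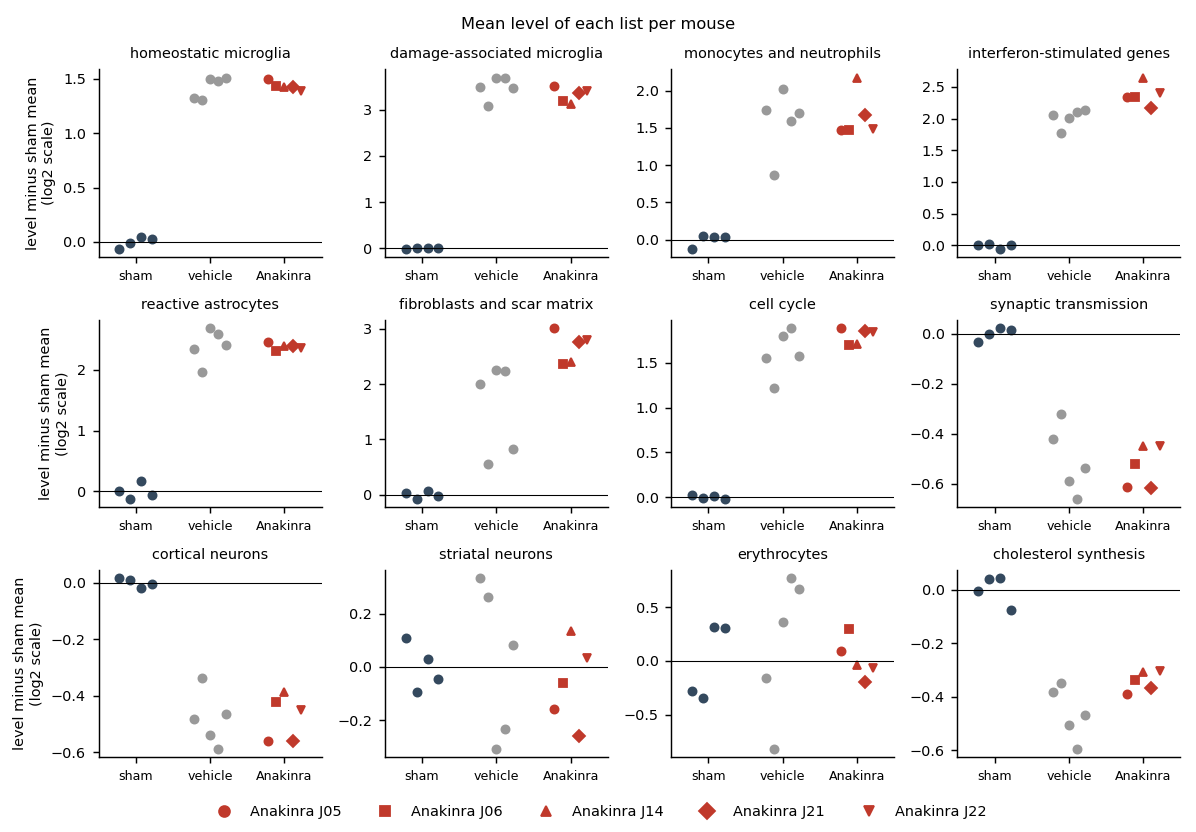
Mean level of 12 lists in each mouse (log2 scale) minus the mean of the sham mice, with a symbol for each Anakinra mouse. Immune, astrocyte, matrix and cell cycle lists lie above the sham mice in every injured mouse, synaptic, cortical and cholesterol lists lie below, and striatal and erythrocyte lists overlap.

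The few lower DEGs were Phospho1, Ovol2, Igfn1, Lamp5, Kcns1, Amn, Avp, Gm21949 and C730002L08Rik. Phospho1, a phosphatase of mineralizing tissue, was 16.0, 15.4, 17.8, 10.9 and 14.2 TPM in the Anakinra mice and 38.2, 32.3, 30.3 and 34.0 TPM in the sham mice, a difference of -1.14 ± 0.16 (SE, adjusted p = 1.17e-06). Igfn1, best known from skeletal muscle, was 4.06, 6.43, 6.24, 6.52 and 4.77 TPM in the Anakinra mice and 13.6, 12.9, 11.3 and 13.1 TPM in the sham mice, and the potassium channel subunit Kcns1 was 13.98, 13.8, 12.5, 13.6 and 11.2 TPM in the Anakinra mice and 31.0, 27.1, 21.5 and 25.4 TPM in the sham mice. The groups did not overlap for 8 of the 9 genes, the exception being Avp. Avp encodes the hypothalamic hormone vasopressin, and it was 2.56, 0.997, 2.04, 4.99 and 1.01 TPM in the Anakinra mice and 5.11, 2.22, 8.20 and 33.9 TPM in the sham mice, so that a single sham mouse held most of the difference (adjusted p = 0.0693).

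Of the 905 higher DEGs, 898 did not overlap between the groups, and among the other 7 were genes high mainly in mouse J05. Tph1, the first enzyme of serotonin and melatonin synthesis in the pineal gland, was 24.6, 0.0763, 0.217, 0.204 and 4.13 TPM in the Anakinra mice and 0.267, 0.113, 0.105 and 0.138 TPM in the sham mice. Pde6g and Gnb3, parts of the phototransduction cascade that pineal cells also express, reached 30.1 and 43.1 TPM in J05 and 5.06 and 5.39 TPM in J22, and no sham mouse exceeded 1.00 TPM in either gene. Mouse J05 stood highest and J22 next for all 3 genes, and the other 3 Anakinra mice were at or near the sham values. Their adjusted p-values were 0.0667, 0.0417 and 0.0696, and 0.270, 0.153 and 0.281 without J05. Of 6 further pineal genes, chosen after these values were seen, Asmt, the last enzyme of melatonin synthesis, was 6.12, 0, 0, 0 and 1.24 TPM in the Anakinra mice and 0, 0, 0.210 and 0 TPM in the sham mice, and Crx, a photoreceptor and pineal factor, was 11.1, 0, 0, 0 and 1.51 TPM in the Anakinra mice and 0.0471, 0, 0 and 0 TPM in the sham mice. Aanat, the acetyltransferase of that route, was 0.478, 0.492, 0.534, 1.25 and 1.26 TPM in the Anakinra mice and 1.30, 0.896, 1.33 and 0.928 TPM in the sham mice, with J05 the lowest. The bone matrix genes Bglap and Ibsp were also highest in J05, at 23.7 and 9.86 TPM, and below 1 TPM in the other Anakinra mice. The hypothalamic peptide Hcrt, or orexin, was 0.446, 0, 0.178, 0.209 and 31.8 TPM in the Anakinra mice and 0.973, 1.16, 6.002 and 10.9 TPM in the sham mice. Pmch, which encodes melanin-concentrating hormone, was 0.522, 1.30, 6.95, 2.28 and 58.7 TPM in the Anakinra mice and 2.09, 7.62, 14.7 and 49.4 TPM in the sham mice, and both were highest in J22 with sham mouse J16 next. The part of these single-mouse values in the other results was not tested beyond leaving out each mouse in turn, and 873 DEGs were higher without J05.

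**Figure D5:**
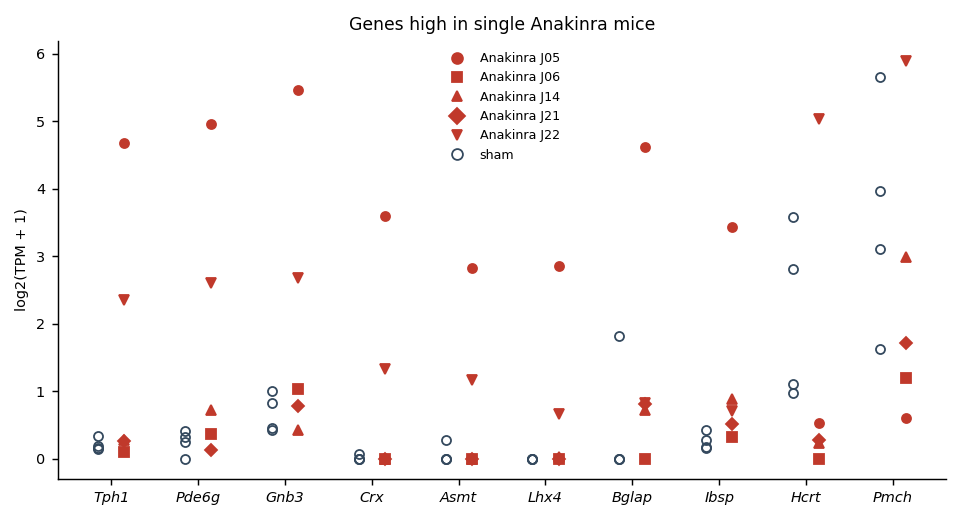
Levels (log2 of TPM + 1) of 10 genes in each sham mouse (open circles) and each Anakinra mouse (filled symbols). Pineal genes (Tph1 to Lhx4) and bone genes (Bglap and Ibsp) are highest in J05, and the hypothalamic genes Hcrt and Pmch are highest in J22 and spread widely among sham mice.

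Vehicle mice, compared with the same 4 sham mice, had 882 higher DEGs (5.11%) and 27 lower DEGs (0.156%). Because both injured groups share their control, the responses are given side by side and their difference was tested directly between Anakinra and vehicle mice. Spp1 differed from sham by 7.16 under Anakinra and by 7.58 under vehicle, Lyz2 by 6.21 and 6.82, Gfap by 3.91 and 4.06, and Camk2a by -0.76 and -0.79. The direct differences of these 4 genes did not pass, with adjusted p-values of 0.407, 0.162, 0.553 and 0.896. List medians under Anakinra and vehicle were 3.02 and 3.33 for damage-associated microglia, 2.10 and 1.99 for reactive astrocytes, -0.59 and -0.57 for synaptic genes, and -0.36 and -0.42 for cholesterol synthesis.

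The response differed from that under vehicle at an adjusted p below 0.05 in 20 genes (0.116% of those tested), 12 higher and 8 lower with Anakinra. An unadjusted p below 0.05 was reached by 2148 genes (12.4%), 949 of them higher (5.5%) and 1199 lower (6.94%). The means of the 8 lower genes were above sham in both groups, and less far above it under Anakinra. For Fyn, a kinase of the Src family, the Anakinra mice overlapped the sham mice, at 81.0, 76.0, 73.8, 71.3 and 75.4 TPM in the Anakinra mice and 73.3, 72.0, 67.6 and 67.6 TPM in the sham mice. Its difference from sham was 0.11 ± 0.04 (SE, adjusted p = 0.0481), and it did not pass without Anakinra mouse J05, J06 or J22 or sham mouse J15 or J16 (adjusted p from 0.0663 to 0.144). Among the 8 genes, Wfdc17, a small secreted protein of activated macrophages, was 43.0, 43.1, 41.9, 62.1 and 46.9 TPM with Anakinra, 105, 69.5, 92.2, 124 and 79.0 TPM with vehicle and 1.82, 2.03, 1.33 and 1.88 TPM in sham mice. Its direct difference was -0.96 ± 0.15 (SE, adjusted p = 0.0189). Mmp8, the collagenase of neutrophils, was 1.59, 2.29, 2.25, 2.19 and 2.00 TPM with Anakinra and 4.15, 3.09, 4.11, 3.99 and 3.75 TPM with vehicle, and it was listed at 0 in all sham mice. Apoc2, an apolipoprotein that activates lipoprotein lipase, and Cd24a, a surface glycoprotein of immature cells, had direct differences of -0.83 ± 0.15 and -0.62 ± 0.11 (SE). Sepp1, Zbtb20, Fyn and Efcab14 complete the 8.

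Of the 12 higher genes, 9 stood further above sham with Anakinra than with vehicle. They were Ctsk, Col6a1, Col6a2, Crabp1, Fkbp11, Foxs1, Mmp12, Six2 and Tpm2. Ctsk, a collagen-degrading cathepsin, was 41.4, 20.97, 20.5, 34.3 and 27.4 TPM with Anakinra, 11.7, 6.47, 17.4, 15.9 and 6.78 TPM with vehicle and 5.16, 4.87, 3.86 and 3.95 TPM in sham mice, a direct difference of 1.29 ± 0.26 (SE, adjusted p = 0.046). Mmp12, the elastase of macrophages, was 10.7, 6.94, 5.73, 7.24 and 11.7 TPM with Anakinra, 4.27, 2.62, 5.61, 4.19 and 3.08 TPM with vehicle and 0.188, 0, 0 and 0 TPM in sham mice. The remaining genes, Igfbp4, Igfbp6 and 4933439C10Rik, had means below sham in both groups, less so with Anakinra, and Igfbp4 did not pass against sham without Anakinra mouse J22 or sham mouse J07, J08 or J16 (adjusted p from 0.0609 to 0.106). The count of 20 rested on single mice: it was 9, 4, 6, 1 and 13 without Anakinra mouse J05, J06, J14, J21 or J22, and 57, 66 and 2 without vehicle mouse J18B, J19B or J20B. It was 2 with only these 2 groups in the model.

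Among the 34 lists, scar matrix had the highest median difference from vehicle. The median direct difference of its 27 genes was 1.09, against -0.02 over all genes tested. An unadjusted p below 0.05 was reached by 25 genes, all higher, although only Col6a1 and Col6a2 passed after adjustment. Over all genes tested 5.5% were higher at an unadjusted p below 0.05. Col1a1 was 169, 15.1, 206, 196 and 23.4 TPM in the vehicle mice J01B, J17B, J18B, J19B and J20B, of which J17B and J20B were lowest and all 5 lay below the lowest Anakinra mouse. Its direct difference was 2.05 ± 0.51 (SE, adjusted p = 0.0968). The median over the list was 0.86 without J17B and 0.90 without J20B, and the count past an adjusted p was 16 without J18B or J19B and 0 without J20B or Anakinra mouse J21. By mean level on the log2 scale, markers of meninges were also lowest in vehicle mice J17B and J20B, but not by summed TPM. The mean level of the 9 meningeal genes minus that of sham mice was 0.23, -0.01, 0.21, 0.32 and 0.02 on the log2 scale in the 5 vehicle mice, in the order above, and between 0.26 and 0.38 in Anakinra mice. Their summed level was between 1217 and 1506 TPM in vehicle mice, between 1303 and 1563 TPM in Anakinra mice and between 1795 and 2009 TPM in sham mice. The lowest sum in vehicle mice was that of J18B, with 1452 TPM in J17B and 1396 TPM in J20B. Foxd1, Alx4 and Crabp2, transcription factors and a retinoic acid carrier, were the 3 of 9 higher than vehicle at an unadjusted p below 0.05, by 0.60 ± 0.19, 0.51 ± 0.15 and 0.48 ± 0.16 (SE, adjusted p = 0.16, 0.156 and 0.196). Their part in the scar matrix difference was not tested. Interferon-stimulated genes had a median direct difference of 0.36. Of the 32 genes 22 had an unadjusted p below 0.05, all higher, against 5.5% of all genes tested, but none passed after adjustment. The number was 15 without Anakinra mouse J14 and 15 without vehicle mouse J17B. Cxcl10 was 30.6, 21.1, 26.8, 32.1 and 29.8 TPM in vehicle mice, all below the lowest Anakinra mouse, with a direct difference of 0.61 ± 0.16 (SE, adjusted p = 0.11). Some lists lay lower than vehicle, where 6.94% of all genes had an unadjusted p below 0.05. It was 7 of 11 oligodendrocyte progenitor genes (median -0.16), 7 of 14 myelin genes (-0.10) and 7 of 16 homeostatic astrocyte genes (-0.10). Of the astrocyte genes 1 was higher, and no gene of these lists passed after adjustment.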

How the data were processed

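The mRNA of 24 mice was sequenced as paired-end reads, 1 library per mouse. The authors used CLC Genomics Workbench with the GRCm38 genome. The values they deposited are TPM, that is, length-normalized values scaled to a sum of 1000000 per library. Of 3 deposited tables the full one was used, the table rounded to 3 decimals served as an alternative, and the filtered table, which holds the authors' own test values, was not used. TPM keep neither counts nor depth, so no counting interval is given and no count model was run.

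Groups were taken from the treatment in the labels. Values were analysed as log2(TPM + 1) for genes averaging 0.5 TPM or more across the 24 libraries, in 1 limma model over the 5 groups with a variance trend (R 4.3.3, limma 3.58.1, Python 3.11.15), and p-values were adjusted by Benjamini-Hochberg over all genes tested. All tests were two-sided. DEGs needed an unadjusted p below 0.05, a ratio of mean TPM above 2 and a difference above 4 TPM. The code was tested on simulated data. No pair of libraries held the same values.

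The members and gene lists were chosen with earlier results of these data known. Genes named were the 8 largest increases and decreases called by every criterion (6 decreases qualified), the 3 largest changes and the most abundant gene that did not pass in each list, ligands and receptors of interleukin-1, the genes whose proteins the study stained, those differing between Anakinra and vehicle, and the 5 most variable among Anakinra mice. Further list members named as examples were chosen after their values were seen. Alternatives changed the pseudocount, filter, scaling, variance trend, libraries in the model, deposited table, DEG criteria and single mice. The pineal list and the list levels per mouse were added after seeing the data. All 153 genes named by the rule had a position in the GRCm38.p6 annotation. Some members of the lists are not reported here.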

Additional observations from a re-analysis of the deposited data

Results flagged for a closer look

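The injury response under Anakinra differed from that under vehicle in 20 genes, by the direct limma comparison of the 2 groups (adjusted p below 0.05). On the log2 scale the Anakinra minus vehicle difference was 1.29 for Ctsk, 1.06 for Crabp1, 1.06 for Six2, 0.99 for Col6a2, 0.97 for Fkbp11, 0.92 for Mmp12, 0.72 for Foxs1, 0.64 for Col6a1, 0.59 for Tpm2, 0.35 for Igfbp6, 0.27 for Igfbp4 and 0.26 for 4933439C10Rik. It was -0.96 for Wfdc17, -0.83 for Apoc2, -0.65 for Mmp8, -0.62 for Cd24a, -0.44 for Zbtb20, -0.37 for Sepp1, -0.21 for Fyn and -0.18 for Efcab14. The cause of these differences was not tested.

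Of 168 groups of values examined for a mouse far from its group, 19 held one, by Dixon's ratio of the gap to the nearest mouse over the range of the group. Chance gives about 1 in 20 groups where values were not picked by their spread. The genes examined included the 5 most variable among these Anakinra mice, so the count of 19 cannot be set against that rate. Mouse J05 stood apart for Gnb3 (0.882), Tph1 (0.834) and Pde6g (0.834) and for the mean level of skeletal muscle, skin and bone genes (0.788). Mouse J22 stood apart for Hcrt (0.986), Pmch (0.889) and Igfbp4 (0.819). Mouse J14 stood apart for the mean level of NF-kappaB and interleukin-1 response genes (0.752) and of monocyte and neutrophil genes (0.722). Mouse J06 did so for heme and iron genes (0.760) and 4933439C10Rik (0.722), and J21 for Wfdc17 (0.753). Among sham mice J07 was the only one above 0 for Il1rn, Apoc2 and Mmp12, at values below 1 TPM, which by itself gives a ratio of 1. J07 also stood apart for monocyte and neutrophil genes (0.882). Sham mouse J08 stood apart for Cd68 (0.854), J15 for interferon-stimulated genes (0.860) and J16 for skeletal muscle, skin and bone genes (0.905). The cause was not tested for any of these mice.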

How the results depend on the processing

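The counts of genes higher, lower and without overlap between Anakinra and sham mice stayed within 1.5 times their values under every alternative run. Higher DEGs became 1394 and lower DEGs 39 once 1 TPM replaced 4 TPM as the smallest difference (1366 and 73 for vehicle versus sham), and lower DEGs 5 by the fold change of the model. Leaving out single mice gave between 7 and 15 lower DEGs. The 20 genes that differed between Anakinra and vehicle became 3 with a pseudocount of 0.1, 5 without a filter, 11 after rescaling, 2 with only the compared groups in the model and 5 without a variance trend, and between 1 and 66 without single mice. The cause of these changes was not tested. No direction reversed in any alternative run. For the 153 named genes, 2380 of 2428 recomputed differences from sham kept their side of the threshold, 22 gained it and 26 lost it. For the 20 genes that differed from vehicle, 188 of 336 lost it. Of 1088 list counts 24 moved by more than 1.5 times. No paired analysis was possible because the groups share no replicate numbers. Depth is unknown, so precision rests on 4 or 5 mice per group.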
